A study of Bos taurus with 12 samples.

Results

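The genes described here encode parts of the cilium and its axoneme in the endometrium of heifers. They were chosen by symbol: TEKT, RSPH, DNAH, DNAI, DNAAF, IFT, CFAP, BBS and TTC genes with a number, and a short set of further cilia genes such as SPAG6, ROPN1L and CCDC39. On the array, 75 probe sets of 55 genes matched. Probe sets entered the comparisons if at least 3 of the 12 arrays read over 4 on the log2 scale, and a gene was read from its kept probe set with the highest mean. This left 50 of the 55 genes, among 6781 kept genes in all. DNAH7, IFT57, RSPH10B, TEKT3 and TTC36 were above 4 on 0 arrays, with highest values between 1.11 for TTC36 and 3.49 for IFT57. IFT80 stood just inside the limit, above 4 on 3 arrays, with a range of 2.91 to 5.11. FOXJ1, the transcription factor that switches on motile ciliogenesis, was not analysed here, nor were SPAG16, SPAG17, CAPS, PIFO, AK7 and CCDC40.

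Ciliated cells lie among the secretory cells of the uterine lining and carry motile cilia on their surface. The core of a motile cilium, the axoneme, is a ring of doublet microtubules bearing dynein motor arms and radial spokes around a central pair. Dynein arms are pre-assembled in the cytoplasm, intraflagellar transport (IFT) moves cargo along the doublets, and the BBSome is a coat-like complex that carries membrane proteins in and out of cilia. IFT and the BBSome also serve the non-motile primary cilium that many cell types bear. In endometrium, ciliated cells are known to respond to ovarian steroids over the cycle. Many proteins named TTC for a tetratricopeptide repeat have no known link to cilia.

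The tissue was endometrium biopsied from Simmental heifers at day 7 or day 14 of the cycle that preceded embryo transfer, and the groups differ in day and in what followed that transfer. CDd14 and CDd7 come from heifers whose pregnancy ended with a calf delivered, and NPd14 and NPd7 from heifers with no pregnancy, which returned to heat. Each group has 3 arrays, each hybridised with RNA of 1 pool; how many heifers a pool holds is not stated in the labels. All p-values therefore refer to the spread from pool to pool. Levels are log2 values after GCRMA, a background correction and normalization for Affymetrix arrays, and a difference of 1 is a doubling. The level of 1 gene cannot be set against that of another on this scale. In bulk tissue, fewer ciliated cells and less RNA per ciliated cell cannot be told apart.

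Markers of the other cell types were read as the mean log2 deviation of a list from each gene's mean over the 12 arrays. Of 16 listed markers of uterine epithelium, 12 were kept, among them EPCAM and CDH1, and their mean ran from 0.09 to 0.32 in the CDd14 pools, -0.13 to 0.19 in NPd14, -0.12 to -0.06 in CDd7 and -0.22 to -0.10 in NPd7. Of 16 stromal fibroblast markers, 12 were kept, with means of -0.99 to -0.22 in CDd14, -0.60 to 0.91 in NPd14, -1.63 to -0.42 in CDd7 and 1.02 to 2.24 in NPd7. Smooth muscle was represented by 1 of 7 listed markers (MYLK), endothelium by 1 of 8 (CLDN5) and red blood cells by 1 of 6 (GYPC). On the array were 6, 8 and 5 markers of these lists. The others there, such as ACTA2, PECAM1 and HBB, did not pass the limit, so a change in the 1 kept gene is not read as a change in its cell type. OVGP1, which marks oviduct epithelium, was at 1.63 to 1.68 on all 12 arrays, below the limit of 4. The 3' minus 5' difference of endogenous control transcripts, a measure of RNA integrity and labelling, was 1.97 ± 0.11 in CDd14, 2.32 ± 0.17 in NPd14, 1.65 ± 0.20 in CDd7 and 1.94 ± 0.19 in NPd7 (SD, n = 3 each). Its highest value, 2.42, was in NPd14 pool 3 and its lowest, 1.42, in CDd7 pool 2, the pools in which axonemal transcripts were lowest and highest. For control transcripts added to the samples, the difference was 5.13 ± 0.12 in CDd14, 5.38 ± 0.14 in NPd14, 4.74 ± 0.07 in CDd7 and 5.06 ± 0.15 in NPd7.

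The 50 genes did not behave as 1 block. Grouped by role, with the values already known, 17 belong to the motile axoneme or to the assembly of its dynein arms. All 17 are called axonemal here. Of the rest, 9 belong to IFT, 5 to the BBSome and 4 are other CFAP genes. A further 2 encode the centriole protein centrin 2 and the tubulin-binding TPPP3, and 13 are TTC genes outside the cilia lists. An earlier list of roles placed the 4 other CFAP genes with the axonemal rulers, so counts and medians over the 17 depend on this grouping. The axonemal genes varied most. Of these 17, 10 ranged over more than 3 log2 units across the 12 arrays, against 0 of the 13 TTC genes and 8.84% of all kept probe sets. Within groups, the median SD was 0.92 over the axonemal genes, 0.39 over the 50 genes and 0.26 over all kept probe sets. The widest ranges were 6.36 for RSPH9, 5.96 for ROPN1L, 5.81 for CFAP141, 5.59 for TPPP3, 5.21 for TEKT1, 4.90 for SPAG6, 4.57 for CFAP206 and 4.46 for CFAP70. At the other end, the within-group SD was 0.12 for IFT20 and 0.10 for IFT25.

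**Figure D1:**
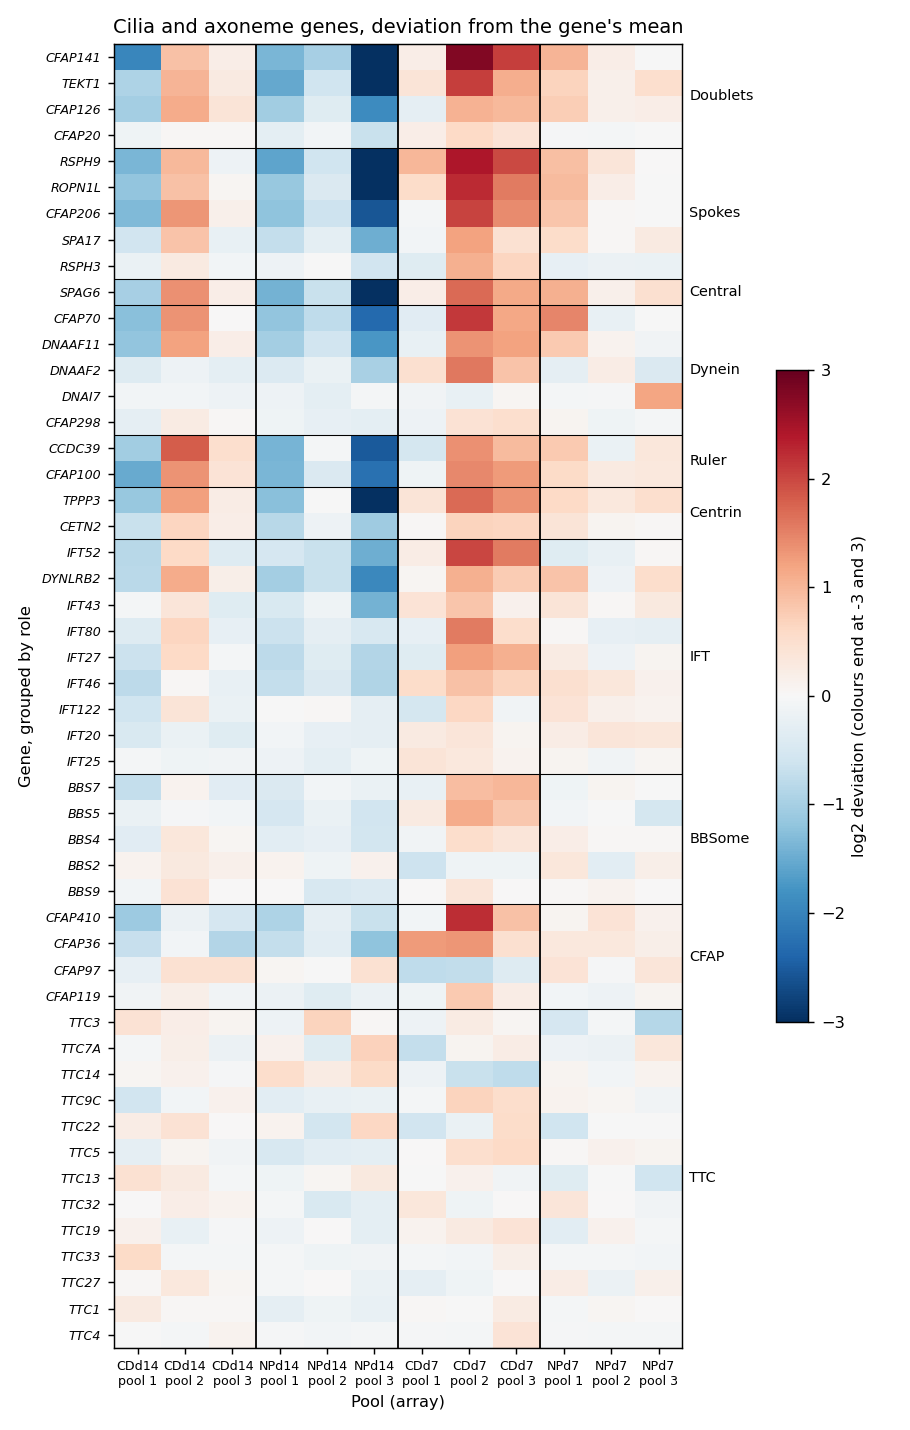
Each row is 1 of the 50 kept genes, ordered by role, each column 1 of the 12 pools, and colour gives the log2 deviation from that gene's mean over the 12 arrays, with the scale ending at 3 on either side. Of the 17 axonemal rows, 16 are lowest in NPd14 pool 3 and 13 highest in CDd7 pool 2, and 0 of the 13 TTC rows range over more than 3 units.

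TEKT1 encodes a tektin, a filament protein inside the doublet microtubules. Its log2 level in pools 1, 2 and 3 was 7.48, 9.42 and 8.68 in CDd14, 6.87, 7.81 and 5.26 in NPd14, 8.80, 10.47 and 9.50 in CDd7, and 9.08, 8.55 and 8.92 in NPd7. The NPd14 pools lay below all NPd7 pools, NPd14 pool 2 lay inside the CDd14 range, and CDd14, CDd7 and NPd7 overlapped. CFAP141, a protein of the doublet lumen, stood at 4.68, 7.50 and 6.82 in CDd14, 5.25, 5.63 and 3.62 in NPd14, 6.84, 9.42 and 8.71 in CDd7, and 7.66, 6.83 and 6.62 in NPd7. CFAP126, also of the doublets, had 9.34, 11.46 and 10.74 in CDd14, 9.31, 9.998 and 8.48 in NPd14, 10.09, 11.39 and 11.34 in CDd7, and 11.11, 10.51 and 10.56 in NPd7. Both were lowest in NPd14 pool 3. CFAP20, a protein of the inner junction of the doublet, kept to a narrower band of 8.52 to 9.77.

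RSPH9 encodes a protein of the radial spoke head. It had 7.01, 9.37 and 8.23 in CDd14, 6.82, 7.81 and 4.45 in NPd14, 9.39, 10.81 and 10.38 in CDd7, and 9.30, 8.75 and 8.41 in NPd7. The 3 CDd7 values lay above all others, and CDd14 pool 2 came close to the lowest of them. ROPN1L, a spoke-associated protein that binds kinase anchors, had 8.13, 10.20 and 9.37 in CDd14, 8.17, 8.89 and 5.59 in NPd14, 9.87, 11.55 and 10.87 in CDd7, and 10.26, 9.52 and 9.30 in NPd7. CFAP206, which helps to dock a spoke to the doublet, had 6.73, 9.39 and 8.21 in CDd14, 6.86, 7.44 and 5.51 in NPd14, 8.002, 10.08 and 9.49 in CDd7, and 8.90, 8.09 and 8.06 in NPd7. In both genes NPd14 pool 3 was the lowest of the 12 pools by more than 1 log2 unit. SPA17, related to ROPN1L, varied less, at 9.99, 11.42 and 10.33 in CDd14, 9.84, 10.25 and 9.10 in NPd14, 10.47, 11.76 and 11.01 in CDd7, and 11.10, 10.59 and 10.83 in NPd7. RSPH3, another spoke protein, stayed between 6.42 and 8.06, with its highest values of 8.06 and 7.64 in CDd7 pools 2 and 3.

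SPAG6, a protein of the central pair, had 6.78, 9.15 and 7.99 in CDd14, 6.38, 7.12 and 4.59 in NPd14, 7.98, 9.49 and 8.92 in CDd7, and 8.84, 7.93 and 8.26 in NPd7. Again the NPd14 pools were low as a group, and only their pool 2 exceeded the lowest CDd14 pool. CCDC39, a ruler that sets the spacing of arms and spokes along the doublet, had 5.96, 8.81 and 7.49 in CDd14, 5.60, 6.93 and 4.48 in NPd14, 6.47, 8.36 and 7.95 in CDd7, and 7.78, 6.78 and 7.33 in NPd7. CFAP100, whose Chlamydomonas counterpart modifies inner arm dynein, ran from 4.50 in NPd14 pool 3 to 8.18 in CDd7 pool 2. TPPP3, a tubulin-binding protein abundant in ciliated cells, had 8.65, 11.01 and 10.01 in CDd14, 8.53, 9.78 and 5.90 in NPd14, 10.19, 11.49 and 11.13 in CDd7, and 10.38, 10.11 and 10.29 in NPd7. The NPd14 pools of TPPP3 were spread far apart, and its NPd7 pools lay close together.

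Among genes of the dynein arms, CFAP70, an outer arm protein, had 4.14, 6.74 and 5.39 in CDd14, 4.21, 4.63 and 3.06 in NPd14, 5.05, 7.52 and 6.54 in CDd7, and 6.85, 5.16 and 5.38 in NPd7. DNAAF11, an assembly factor for the arms, had 6.47, 8.86 and 7.85 in CDd14, 6.65, 7.09 and 5.93 in NPd14, 7.44, 9.02 and 8.87 in CDd7, and 8.44, 7.77 and 7.55 in NPd7. Both followed the tektin and spoke genes. DNAI7, which associates with axonemal dynein, did not: 11 of its pools lay between 4.88 and 5.23 and NPd7 pool 3 stood at 6.35. DNAAF2, another assembly factor, was highest in the CDd7 pools and is described with that group. CFAP298, which also takes part in arm assembly, stayed between 13.19 and 13.98.

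The axonemal genes shared an order of pools within groups. In CDd14, 15 of the 17 ran pool 2 over pool 3 over pool 1, an order held by 23.9% of all kept probe sets. In NPd14, 15 of 17 ran pool 2 over pool 1 over pool 3 (27.7% of all), and in CDd7, 15 of 17 ran pool 2 over pool 3 over pool 1 (14.9% of all). In NPd7 the commonest order, pool 1 over pool 3 over pool 2, held for 8 of 17 (20.4% of all). NPd14 pool 3 was the lowest of the 12 arrays in 16 of the 17 axonemal genes and 26 of the 50 genes, against 16.2% of all kept probe sets. CDd7 pool 2 was the highest in 13 of 17 and 28 of 50, against 16.2%. The endogenous 3' minus 5' difference ran in the reverse of the commonest axonemal order in CDd14, NPd14 and CDd7. It was 1.84, 2.003 and 2.05 in CDd14 pools 2, 3 and 1. In NPd14 pools 2, 1 and 3 it was 2.12, 2.41 and 2.42. In CDd7 pools 2, 3 and 1 it was 1.42, 1.73 and 1.79. NPd7 did not follow this, at 1.73, 2.11 and 1.97 in pools 1, 3 and 2. Whether pools differed in ciliated cell content was not tested, nor was the part of the 3' minus 5' difference in these orders.

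**Figure D2:**
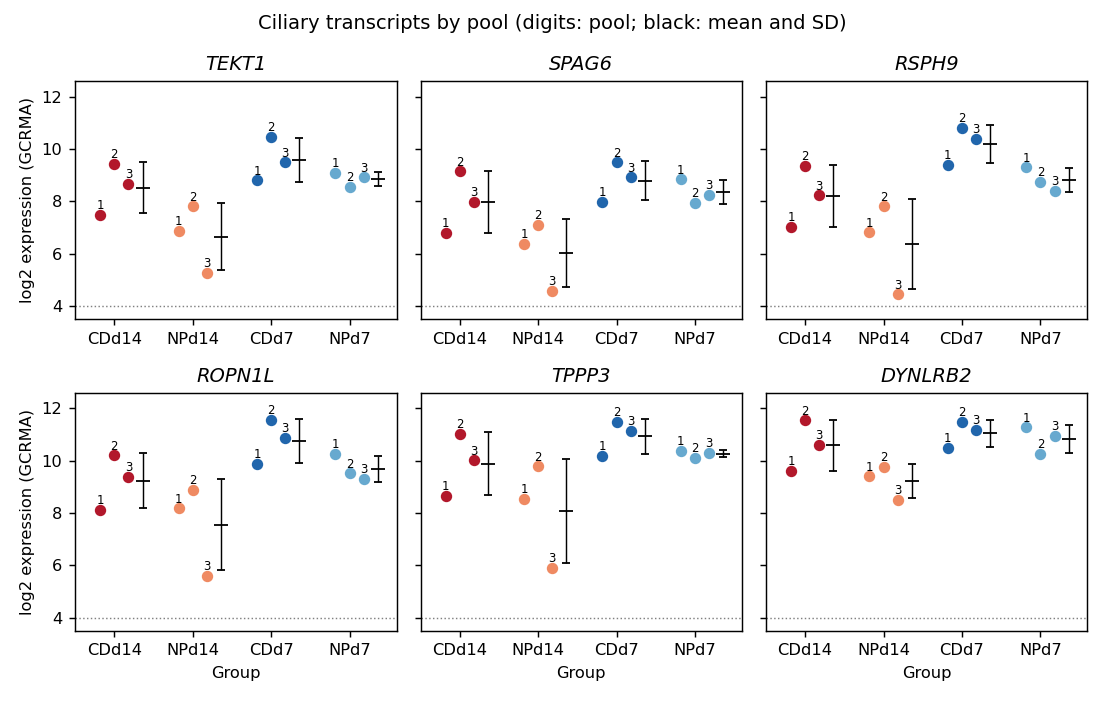
Log2 level of TEKT1, SPAG6, RSPH9, ROPN1L, TPPP3 and DYNLRB2 in each pool (coloured points, digit giving the pool number) by group, with the group mean and SD in black and the limit of 4 dotted. NPd14 pool 3 is the lowest point in all 6 panels, for example 4.45 for RSPH9, and the NPd14 pools overlap the CDd14 pools in 6 of 6.

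At day 14, before a transfer that led to a calf or to none, ciliary transcripts tended higher in CD than in NP, but no gene passed the test. The log2 difference was above 0 in 45 of the 50 genes, against 52.5% of all kept probe sets, with a median of 0.32 against 0.01. With limma, 0 of the 50 passed an adjusted p of 0.05. The background was as sparse: 0.0223% of all probe sets passed. An unadjusted p under 0.05 was found in 8 of the 50 genes and in 993 of the 13449 probe sets. Of the 8, 3 were TTC genes outside the cilia lists. In the axonemal genes the median difference was 1.43, with 17 of 17 above 0 and 0 of 17 with groups that did not overlap. Over the 50 genes, the groups did not overlap in 6 that were higher in CDd14 (4.63% of all probe sets) and in 1 that was lower (6.75% of all). TTC genes outside the cilia lists made up 4 of these 6 and the 1 lower gene. Among the 37 genes without them, 2 were higher without overlap and 0 lower.

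TEKT1 averaged 8.53 ± 0.98 in CDd14 and 6.65 ± 1.29 in NPd14 (SD, n = 3 each), a log2 difference of 1.88 ± 0.67 (SE) or 3.67-fold (limma adjusted p = 0.575). SPAG6 averaged 7.97 ± 1.18 in CDd14 and 6.03 ± 1.30 in NPd14, a difference of 1.95 ± 0.72 or 3.85-fold (limma adjusted p = 0.580). The spread between pools of 1 group was as wide as these gaps. RSPH9, at 8.20 ± 1.18 in CDd14 and 6.36 ± 1.73 in NPd14, differed by 1.85 ± 0.82 (adjusted p = 0.675). ROPN1L, CCDC39 and TPPP3 differed by 1.69, 1.75 and 1.82, each with an adjusted p of 0.676 to 0.689 in limma. DYNLRB2, a dynein light chain found in the motor of retrograde IFT, had 9.62, 11.54 and 10.60 in CDd14 and 9.40, 9.76 and 8.49 in NPd14, with 10.48, 11.48 and 11.18 in CDd7 and 11.27, 10.26 and 10.96 in NPd7. Its day 14 difference was 1.37 ± 0.50 (2.58-fold, adjusted p = 0.578). The smallest p belonged to a TTC gene, TTC1, a chaperone partner, whose pools did not overlap: 10.76, 10.54 and 10.54 in CDd14 and 10.23, 10.37 and 10.29 in NPd14, a difference of 0.31 ± 0.11 (adjusted p = 0.573).

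NPd14 pool 3 weighed on the sizes. Without it the axonemal median was 0.86 in place of 1.43, still with 17 of 17 above 0, and TEKT1 differed by 1.19, SPAG6 by 1.23, RSPH9 by 0.89, ROPN1L by 0.70 and TPPP3 by 0.74. CDd14 pools weighed as much: the axonemal median was 0.80 without CDd14 pool 2 and 2.09 without CDd14 pool 1. Over the 50 genes, 42 to 46 lay above 0 without CDd14 pool 2, CDd14 pool 1, NPd14 pool 2 or NPd14 pool 3. The count of non-overlapping genes was least steady, at 32 higher in CDd14 without CDd14 pool 1 (10.7% of all probe sets) and 22 without NPd14 pool 2 (12.9% of all), against 6 with all pools. Outside the axoneme the median was 1.28 over TPPP3 and CETN2, which differed by 1.82 and 0.74, then 0.46 in IFT genes, among which DYNLRB2 stood at 1.37, 0.32 in BBSome genes, 0.13 in the other CFAP genes and 0.14 in TTC genes. The epithelial markers differed by a median of 0.08 and the stromal markers by -0.65 between CDd14 and NPd14, with 0 of 12 called in each. The macrophage and neutrophil markers differed by a median of -0.92, with 0 of 6 called and the S100A9 pools lower in CDd14 without overlap, the T and natural killer cell markers by -0.01, and MYLK by -1.80 (limma adjusted p = 0.576). The 3' minus 5' difference was lower in CDd14; the part of each in the result was not tested.

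**Figure D3:**
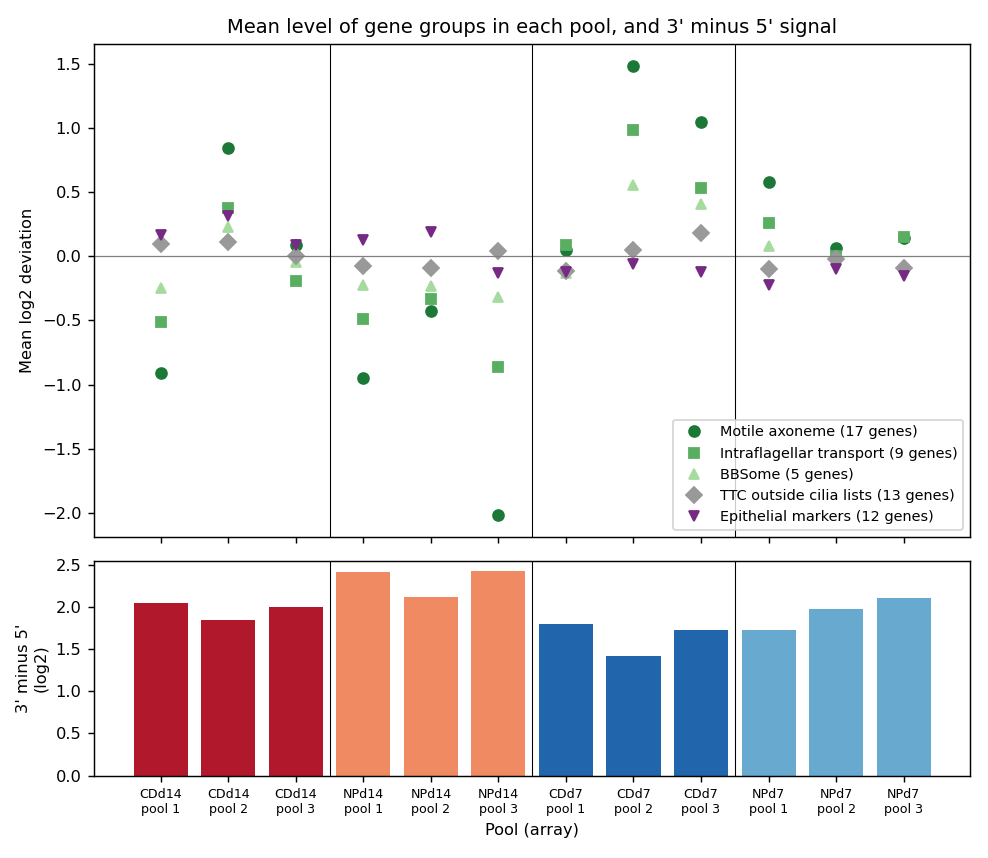
Upper panel, mean log2 deviation of 5 gene lists in each pool from each gene's mean over the 12 arrays; lower panel, mean 3' minus 5' log2 signal of endogenous control transcripts in the same pools. Axonemal genes span -2.02 in NPd14 pool 3 to 1.48 in CDd7 pool 2, IFT genes -0.86 to 0.99 in the same pools, and the TTC and epithelial lists stay between -0.22 and 0.32.

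At day 7, CD exceeded NP in most ciliary genes by smaller amounts, and 1 gene passed the test. The difference was above 0 in 41 of the 50 genes (46.7% of all probe sets), with a median of 0.34 against -0.03 over all. In limma 1 gene was called higher and 0 lower, where 3.74% of all probe sets were called, 1.8% higher and 1.94% lower. An unadjusted p under 0.05 was found in 9 of the 50 genes and in 4032 of the 13449 probe sets. The called gene was BBS5, a BBSome subunit. It had 9.89, 10.74 and 10.42 in CDd7 and 9.55, 9.61 and 9.11 in NPd7, with 9.43, 9.60 and 9.54 in CDd14 and 9.13, 9.43 and 9.05 in NPd14. The 3 CDd7 pools lay above the other 9, and BBS5 rose in CDd7 against NPd7 by 0.93 ± 0.22 (1.90-fold, limma adjusted p = 0.0478). This call was lost without any 1 of 8 pools, namely each CDd14 pool, NPd14 pool 1, CDd7 pools 2 and 3 and NPd7 pools 1 and 3, with adjusted p between 0.0635 and 0.197.

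Another pair came close. CFAP97, whose Drosophila relative acts in sperm and ciliated sensory neurons, was lowest in the CDd7 pools, at 9.57, 9.58 and 9.92, against 10.73, 10.28 and 10.68 in NPd7; CDd14 had 10.08, 10.78 and 10.78 and NPd14 10.38, 10.30 and 10.77. Its CDd7 and NPd7 pools did not overlap, and the difference was -0.87 ± 0.22 (limma adjusted p = 0.0548). DNAAF2 had 8.32, 9.40 and 8.69 in CDd7 and 7.55, 8.06 and 7.41 in NPd7, with 7.44, 7.67 and 7.55 in CDd14 and 7.42, 7.63 and 6.85 in NPd14. Here the CDd7 pools were the 3 highest of the 12, and the difference was 1.13 ± 0.29 (2.19-fold, adjusted p = 0.0557). CFAP97 passed the threshold without NPd14 pool 2, CDd7 pool 3 or NPd7 pool 2 (adjusted p of 0.0322 to 0.0498), and DNAAF2 without NPd14 pool 2, NPd14 pool 3, CDd7 pool 1 or NPd7 pool 2 (0.0320 to 0.0479).

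The groups did not overlap in 8 genes higher in CDd7 (15.9% of all probe sets) and 2 lower (19.1% of all), so the share of the 50 genes that was higher was near the background. In the axonemal genes the day 7 median was 0.52, with 16 of 17 above 0 and 0 called. TEKT1 averaged 9.59 ± 0.84 in CDd7 and 8.85 ± 0.27 in NPd7 (SD, n = 3 each), a difference of 0.74 ± 0.67 (limma adjusted p = 0.476). RSPH9 averaged 10.19 ± 0.73 in CDd7 and 8.82 ± 0.45 in NPd7, a difference of 1.37 ± 0.82 (adjusted p = 0.281), although its pools did not overlap. CDd7 pool 2 carried much of the axonemal difference: without it the median was 0.23 with 12 of 17 above 0, and without CDd7 pool 1 it was 1.02. Between CDd7 and NPd7, 8 of 12 stromal markers were called lower in CDd7 (median -2.996) and 3 of 13 cell cycle genes higher (CDK1, HMMR and CDC20, list median 1.77). Of 9 T and natural killer cell markers, 3 were called lower (CD8A, CD8B and LCK, list median -1.16). MYLK of the smooth muscle list was called lower at -3.23, and GYPC of the red blood cell list lower at -0.98. CLDN5 of the endothelial list was called higher at 2.37. Each was the only kept gene of its list. The epithelial and the macrophage and neutrophil markers differed by medians of -0.06 and -0.73, with 0 of 12 and 0 of 6 called, and the 3' minus 5' difference was lower in CDd7, at 1.65 against 1.94 in NPd7. The part of these lists and of the 3' minus 5' difference in the ciliary differences was not tested.

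Between day 7 and day 14 in CD, as the corpus luteum matures, 10 of the 50 genes passed the test, 8 lower and 2 higher at day 14. Among all probe sets 24% were called, 12.4% lower and 11.6% higher, so the share of the 50 genes that fell was near the background. The median over the 50 genes was -0.46 against 0.05 over all, with 39 of 50 below 0 (45.8% of all). The groups did not overlap in 9 lower (19.9% of all) and 4 higher genes (24.9% of all). The genes that fell were 4 of 9 IFT genes, 2 of 4 other CFAP genes, 1 of 5 BBSome genes and 1 of 17 axonemal genes.

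CFAP36, which binds the ciliary GTPase ARL3, had 9.71, 10.33 and 9.53 in CDd14 against 11.68, 11.75 and 10.88 in CDd7, with 9.69, 10.08 and 9.21 in NPd14 and 10.74, 10.73 and 10.60 in NPd7. It fell to 9.86 ± 0.42 in CDd14, against 11.44 ± 0.48 in CDd7, a log2 change of -1.58 ± 0.29 (2.99-fold lower, limma adjusted p = 0.00668). In both outcomes the 3 day 14 pools lay below the 3 day 7 pools. IFT20, a complex B subunit that links IFT to the Golgi, had 10.32, 10.57 and 10.41 in CDd14 against 11.03, 11.14 and 10.86 in CDd7, with 10.69, 10.52 and 10.49 in NPd14 and 10.99, 11.12 and 11.12 in NPd7. Its fall in CD was small and tight, at -0.57 ± 0.12 (adjusted p = 0.00933). IFT46, a complex B subunit that carries outer arm dynein in Chlamydomonas, had 8.42, 9.24 and 8.98 in CDd14 against 9.75, 10.09 and 9.87 in CDd7, with 8.49, 8.78 and 8.30 in NPd14 and 9.70, 9.56 and 9.35 in NPd7. It fell in CD by 1.03 on the log2 scale (SE 0.21, 2.04-fold lower, limma adjusted p = 0.0098), again with no overlap of days in either outcome.

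DNAAF2, whose pools are given above, fell to 7.55 ± 0.12 in CDd14 against 8.81 ± 0.55 in CDd7, by 1.25 on the log2 scale (2.39-fold, limma adjusted p = 0.0148). BBS5 fell by 0.83 in CDd14 against CDd7 (1.78-fold, adjusted p = 0.0235). CFAP410, a basal body protein, had 5.73, 6.64 and 6.32 in CDd14 and 6.72, 9.03 and 7.69 in CDd7, against 5.89, 6.55 and 6.15 in NPd14 and 6.89, 7.23 and 6.96 in NPd7, and fell in CD by 1.58 (SE 0.48, adjusted p = 0.0384). CDd7 pool 2 stood above all other pools of that gene. IFT25, also complex B, had 11.23, 11.16 and 11.19 in CDd14 and 11.68, 11.60 and 11.38 in CDd7, a fall of 0.36 ± 0.11 (1.28-fold, adjusted p = 0.0410). IFT52, a complex B core subunit, had 7.72, 9.14 and 8.16 in CDd14 and 8.78, 10.55 and 10.10 in CDd7, a fall of 1.47 ± 0.48 (adjusted p = 0.0490) with overlapping pools.

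The 2 genes that rose were CFAP97, by 0.86 ± 0.22 (1.81-fold, limma adjusted p = 0.0222), and TTC14, by 0.58 ± 0.17 (1.49-fold, adjusted p = 0.0315). TTC14, a protein with an RNA-binding domain, had 9.68, 9.74 and 9.60 in CDd14 and 9.47, 8.95 and 8.87 in CDd7, against 10.14, 9.86 and 10.20 in NPd14 and 9.71, 9.54 and 9.73 in NPd7. For CFAP97 and DNAAF2 the CDd7 pools stood apart while the other 3 groups overlapped. Calls of CFAP36, IFT20 and IFT46 held without any 1 of the 12 pools, and that of DNAAF2 was lost only without CDd7 pool 2 (adjusted p = 0.0520). CFAP97 lost its call without CDd14 pools 2 or 3 or CDd7 pools 1 or 2 (0.0644 to 0.0826). BBS5 (0.05003 to 0.0899) and TTC14 (0.0674 to 0.114) lost theirs without any CDd14 pool or without CDd7 pools 2 or 3. CFAP410 (0.0518 to 0.109), IFT25 (0.0564 to 0.124) and IFT52 (0.0559 to 0.178) lost theirs without 8, 8 and 9 of the 12 pools, CDd7 pool 2 among them for each.

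The axonemal genes moved the same way in CD with a wider error. All 17 lay below 0, with a median of -0.79, but only DNAAF2 was called. RSPH9 differed by -1.99 ± 0.82 (3.97-fold lower, limma adjusted p = 0.102) and was called without NPd14 pool 3 (adjusted p = 0.0354). CFAP141 differed by -1.99 ± 0.85 (adjusted p = 0.110), ROPN1L by -1.53 (0.194), TEKT1 by -1.06 (0.266) and SPAG6 by -0.82 (0.421). The axonemal median was -1.31 without CDd14 pool 2 and -0.30 without CDd14 pool 1, where 14 of 17 lay below 0. TTC genes had a median of 0.11. Between CDd14 and CDd7, 5 of 13 cell cycle genes were called lower (list median -1.36) and 2 of 12 epithelial markers, KRT7 and CDH1, higher. The epithelial list had a median of 0.32, and its lowest member, CLDN7, stood at -0.90 with pools that did not overlap. CLDN5 was called lower, at -4.48. Of 9 T and natural killer cell markers, 2 were called higher (LCK and CD69, list median 0.77). The same held for 1 of 6 macrophage and neutrophil markers (S100A12, at 3.51, list median 1.15) and 1 of 12 stromal markers (PDGFRA, at 1.60, list median 0.24). The 3' minus 5' difference was higher in CDd14, and the part of each of these in the ciliary changes was not tested.

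In NP the same interval brought an axonemal median further below 0 than in CD, yet no gene passed. Of the 50 genes, 45 were below 0 (52% of all probe sets), with a median of -0.41 against -0.01 over all. The pools did not overlap in 30 of the 50 genes with lower NPd14 values, where 11.7% of all probe sets did so, and in 1 with higher values (9.88% of all). With limma 0 of 50 were called, where 0.327% of all probe sets were, and the smallest adjusted p was 0.0811 for IFT46. An unadjusted p under 0.05 was found in 22 of the 50 genes and in 2196 of the 13449 probe sets. In the axonemal genes the median was -1.63, all 17 were below 0, and the pools of 13 did not overlap. Without NPd14 pool 3, 31 of the 50 did not overlap (18.4% of all) and 45 were below 0, and the axonemal median was -1.07 with 16 of 17 below 0.

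SPAG6 averaged 6.03 ± 1.30 in NPd14 and 8.35 ± 0.46 in NPd7 (SD, n = 3 each), a difference of -2.32 ± 0.72 (4.99-fold lower, limma adjusted p = 0.176). TEKT1 averaged 6.65 ± 1.29 in NPd14 and 8.85 ± 0.27 in NPd7, a difference of -2.20 ± 0.67 (4.60-fold lower, adjusted p = 0.171). RSPH9 differed by -2.46 ± 0.82 (5.51-fold lower, adjusted p = 0.201). In each of these the 3 NPd14 pools lay below the 3 NPd7 pools, and the NPd14 spread was the wider. DYNLRB2 differed by -1.61 ± 0.50 (3.06-fold, adjusted p = 0.180), ROPN1L by -2.14 ± 0.82 (4.42-fold, 0.245), CFAP141 by -2.21 ± 0.85 (4.61-fold, 0.245) and TPPP3 by -2.19 ± 0.88 (4.56-fold, 0.264). CFAP70, CFAP206, CFAP100, CCDC39, DNAAF11 and SPA17 differed by -1.83, -1.75, -1.74, -1.63, -1.36 and -1.11, with adjusted p of 0.256 to 0.343 in limma. CETN2, the centrin of centrioles and basal bodies, had 10.87, 11.55 and 10.63 in NPd14 and 12.07, 11.77 and 11.72 in NPd7, a difference of -0.83 (adjusted p = 0.274); its other pools were 11.03, 12.34 and 11.90 in CDd14 and 11.72, 12.37 and 12.35 in CDd7. Of the genes called in CD, IFT46 differed in NP by -1.01 ± 0.21, IFT20 by -0.51 ± 0.12 (adjusted p = 0.107) and CFAP36 by -1.02 ± 0.29 (0.162).

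Deviations of NPd14 and NPd7 pools with the same number correlated at 0.16, 0.62 and 0.51 for pools 1, 2 and 3. These pools were therefore also set against each other number by number. The labels do not link pool numbers across days, and some same-numbered pairs of other groups correlated above 0.16. In 38 of the 50 genes the NPd14 pool was lower than the NPd7 pool of its number in all 3 cases, against 25.8% of all probe sets, and in 15 of the 17 axonemal genes, all but CCDC39 and RSPH3. The axonemal median was -1.94 in pool 1, -0.53 in pool 2 and -2.32 in pool 3. With pool number as a block within NP, limma called 0 of the 50 genes (smallest adjusted p 0.0689, for IFT46), and it called 140 of all probe sets, against 44 without the block. The stromal markers differed by a median of -1.88 between NPd14 and NPd7 and the macrophage and neutrophil markers by 1.16, with 0 called in either list, MYLK by -1.70 and CLDN5 by -1.55, and the 3' minus 5' difference was higher in NPd14; their part in the result was not tested.

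**Figure D4:**
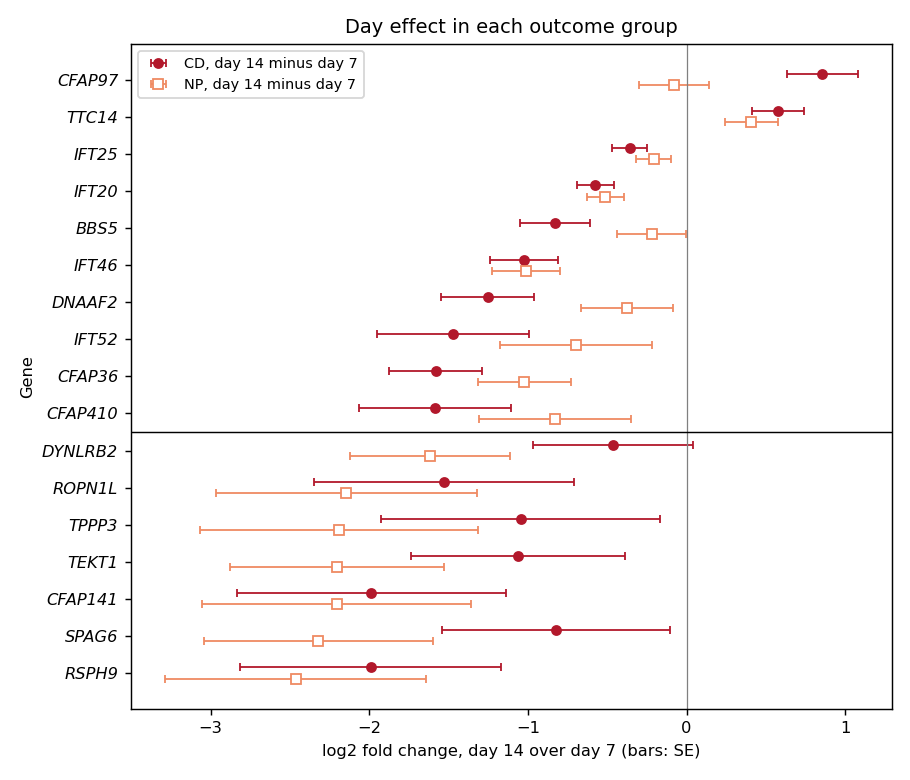
Log2 fold change of day 14 over day 7 (points, with SE) in CD and in NP for the 10 genes called in CD (above the line) and 7 further genes of wide range or with a p under 0.05 in NP (below it). CFAP36, IFT20 and IFT46 lie below 0 in both outcomes. CFAP97 at 0.86 and DNAAF2 at -1.25 in CD stand far from their NP points. For neither was the difference in day effect between CD and NP called (limma adjusted p = 0.290 and 0.362). The 7 genes below the line have wide error bars, as for SPAG6 at -0.82 in CD and -2.32 in NP.

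The difference between the day effects of CD and NP was tested directly. The interaction called 0 of the 50 genes and 0% of all probe sets with limma; 1 of the 50 genes and 1900 of the 13449 probe sets had an unadjusted p under 0.05. The median over the 50 genes was 0.17 against 0.04 over all, with 29 above 0 (53.8% of all). CFAP97 had the largest departure relative to its error, 0.94 ± 0.32 (adjusted p = 0.290), then DNAAF2 at -0.88 ± 0.41 (0.362) and TTC27, outside the cilia lists, at 0.42 ± 0.20 (0.366). SPAG6 at 1.496 ± 1.02, TEKT1 at 1.14 ± 0.95 and DYNLRB2 at 1.15 ± 0.71 lay above 0 by amounts within 2 SE. The axonemal median was 0.61 with 13 of 17 above 0, 1.17 without CDd14 pool 1, 0.13 without CDd14 pool 2 and 0.29 without NPd14 pool 3. A difference in day effect between CD and NP was therefore not shown for any of the 50 genes.

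Genes that build ciliated cells, outside the 50, were read from 3 further lists. Of 28 listed regulators of multiciliogenesis and centriole amplification, 8 were on the array under the listed symbol and 7 were kept. PLK4, the kinase that starts centriole duplication, had 5.48, 7.48 and 7.63 in CDd7, against 4.17, 4.22 and 3.64 in NPd7, and stayed between 3.57 and 4.17 in all pools of CDd14 and NPd14. STIL, a scaffold of the new centriole, had 5.17, 7.59 and 7.11 in CDd7 against 4.19, 4.48 and 3.85 in NPd7, and stayed between 4.15 and 4.43 at day 14. Both genes serve centriole duplication in dividing cells as well as in ciliogenesis, and in both the CDd7 pools were the 3 highest of the 12. PLK4 rose in CDd7 against NPd7 by 2.85 (7.23-fold, limma adjusted p = 0.0253) and fell in CDd14 against CDd7 by 2.96 (7.77-fold, 0.00411). STIL rose by 2.45 (5.47-fold, adjusted p = 0.0368) and fell by 2.40 (5.29-fold, 0.00904) in the same comparisons. These folds are measured from levels close to the limit of 4, where GCRMA values flatten. In CDd7 the cell cycle list stood at 0.19, 2.32 and 1.84 in pools 1, 2 and 3, and PLK4 and STIL were likewise lower in CDd7 pool 1 than in the other CDd7 pools; the part of that list in their change was not tested.

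MYB, a transcription factor of early ciliated cell differentiation and of proliferating cells, had 8.63, 10.40 and 9.54 in CDd14, 8.58, 9.53 and 7.57 in NPd14, 10.97, 12.58 and 12.84 in CDd7, and 10.05, 10.50 and 9.32 in NPd7. It fell in CDd14 against CDd7 by 2.61 (6.09-fold, limma adjusted p = 0.0189), with no overlap, and was not called elsewhere. JAG1, a Notch ligand, rose in CDd14 against CDd7 by 0.92 (1.89-fold, adjusted p = 0.0368). RFX2, a transcription factor of ciliary genes named here after its values were seen, was called in no comparison; its pools were 6.59, 9.15 and 7.71 in CDd14, 6.20, 7.53 and 5.16 in NPd14, 7.90, 9.59 and 9.16 in CDd7, and 8.28, 7.83 and 7.81 in NPd7. It thus shared with most axonemal genes the lowest value in NPd14 pool 3 and the highest in CDd7 pool 2. No other kept gene of this list had both. PLK4 and STIL kept their day calls in CD without any 1 pool, MYB lost its call without CDd14 pool 1, CDd14 pool 3 or CDd7 pool 2 (0.0551 to 0.0753), and JAG1 without 7 of the 12 pools (0.0501 to 0.112). At day 7, PLK4 lost its call without CDd7 pool 2, NPd7 pool 1 or NPd7 pool 3 (0.0974 to 0.119), and STIL without 7 pools (0.0526 to 0.151).

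Of 77 further symbols of axonemal and dynein arm genes, 15 were on the array and 14 were kept. The list also holds HSPBP1 and TUBA1A, which are not specific to cilia. Their medians were 0.46 for CDd14 against NPd14, 0.52 for CDd7 against NPd7, -0.72 for CDd14 against CDd7 and -0.62 for NPd14 against NPd7. In CDd14 against CDd7, 12.4% of all probe sets were called lower. There 2 of the 14 genes fell. EFCAB2, of the dynein regulatory complex, fell by 0.95 (1.93-fold, limma adjusted p = 0.0194). KIF27, a kinesin that binds the ciliogenesis kinase STK36, fell by 0.83 (1.78-fold, adjusted p = 0.0263). Without CDd7 pool 2 or CDd14 pool 1 both calls were lost, EFCAB2 also without CDd7 pool 1 and KIF27 also without CDd14 pool 3 (0.0577 to 0.0789 and 0.0812 to 0.102).

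Of 43 listed genes of the ciliary base, transition zone and other transport, 23 were on the array under the listed symbol and 21 were kept. TULP3, an adapter that brings receptors to IFT, rose in CDd7 against NPd7 by 1.46 (2.74-fold, limma adjusted p = 0.0326) and fell in CDd14 against CDd7 by 1.16 (adjusted p = 0.0166). KIF3B, a subunit of the kinesin of anterograde IFT, rose in CDd7 against NPd7 by 0.54 (1.46-fold, 0.0369). Over all probe sets, 1.8% were called higher in that comparison. In CDd14 against CDd7, 4 of the 21 fell, namely TULP3, MKKS by 0.46 (0.0152), ARL6 by 1.14 (0.0414) and B9D1 by 1.37 (0.0488). Only KIFAP3 rose, by 0.57 (0.0182). There 12.4% of all probe sets were called lower and 11.6% higher. MKKS helps to assemble the BBSome, ARL6 recruits it to membranes, B9D1 belongs to the transition zone and KIFAP3 joins KIF3B in its motor. All of these calls were lost without CDd7 pool 2, with adjusted p up to 0.177. In the comparisons of CDd14 with NPd14 and of NPd14 with NPd7, and in the interaction, 0 genes of the 3 lists were called by limma.

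Of the 50 genes, 7 had further kept probe sets, 9 in all, and these shared the sign of the probe set used in 8 of 9 for CDd14 against NPd14, 8 for CDd7 against NPd7, 7 for CDd14 against CDd7, 8 for NPd14 against NPd7 and 4 for the interaction. The other probe set of RSPH9 gave differences of the same sign and smaller size, at 0.48, 0.84, -1.14 and -0.78 in the 4 pairwise comparisons in that order. Its day difference was thus larger in CD than in NP, the reverse of the probe set used. For ROPN1L, the other probe set differed between days by -2.05 in CD and -2.05 in NP, so the larger NP difference of the probe set used was not seen. The other probe set of TTC14 was called higher at day 14 in both outcomes, by 0.65 in CD (limma adjusted p = 0.0160) and 0.90 in NP (0.0494). A further probe set of BBS7, a BBSome subunit, was called lower in CDd14 against CDd7, at -0.87. Its means of 3.52 in CDd14 and 4.39 in CDd7 lie close to the limit of 4. The brighter probe set used differed by -0.88 and was not called (limma adjusted p = 0.0618).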

How the data were processed

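RNA of 12 pools of endometrium was measured on Affymetrix bovine 3' arrays. The deposited values are log2 expression from GCRMA, per the submitters' processing notes, which also name limma, without versions. Dim probe sets are shrunk toward a common floor by GCRMA, so folds measured near it are uncertain. After 112 control probe sets were left out, 13449 of 24016 probe sets passed the limit of log2 above 4 on at least 3 of 12 arrays. Symbols came from the platform annotation. A gene was read from its kept probe set with the highest mean.

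With limma 3.58.1 in R 4.3.3, 4 group means were fitted over the 12 arrays (8 residual and 2.13 prior degrees of freedom), with 5 contrasts, Benjamini-Hochberg adjustment over the 13449 probe sets and a two-sided threshold of 0.05. The fit was tested on simulated data. The number of arrays limits the precision. One CDd14 title gives 2 unlike pool numbers, and the one after its replicate label was used. Titles call the pools biological replicates; which heifers each holds is not given.

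Genes, lists and tests were chosen with earlier results of these data known. Named are called genes (up to 10 per contrast, otherwise the 3 with the smallest p), the 8 widest in range, SPAG6, SPA17, CETN2, ROPN1L, DYNLRB2, TPPP3, CCDC39, all kept TEKT, RSPH, DNAI and DNAAF genes, and up to 4 called genes per further list and contrast. Numbers were taken as pairs where every same-numbered correlation of deviations exceeded 0.1, which held in NP (0.16, 0.62 and 0.51) but not for CDd14 and CDd7 (0.24, -0.07 and 0.23), CDd14 and NPd14 (0.10, -0.23 and 0.16) or CDd7 and NPd7 (-0.03, 0.36 and 0.27). Alternatives were other filters and normalizations, a robust trended fit, fewer arrays, a replicate block, probe set means, no TTC genes and leaving out each pool. Promoter motifs and sequences were not analysed here.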

Additional observations from a re-analysis of the deposited data

How the results depend on the processing

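The count of ciliary genes called was 0 under every alternative, and without any 1 pool, for CDd14 against NPd14, NPd14 against NPd7 and the interaction. For CDd7 against NPd7, where 1 gene was called, it was 0 without the filter, 0 with only the arrays compared, 2 with a robust trended fit and 4 with the replicate block. Without 1 pool it ran from 0 to 5. For CDd14 against CDd7, where 10 were called, it was 4 with only the arrays compared and 12 with the replicate block, and without 1 pool it ran from 3 (CDd7 pool 2) to 13 (CDd7 pool 1). The cause was not tested. Same-numbered pools met the pairing rule in NP only, so the block of all groups rests on a shared number alone. Within NP the block called 0 ciliary genes.

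No median over the 50 genes changed sign under another filter, normalization or fit. That for NPd14 against NPd7 was -0.83 once TTC genes were left out. Without 1 pool the medians ran from 0.21 to 0.38 for CDd14 against NPd14, 0.20 to 0.54 for CDd7 against NPd7, -0.69 to -0.24 for CDd14 against CDd7, -0.48 to -0.36 for NPd14 against NPd7 and -0.07 to 0.28 for the interaction, which alone crossed 0. CFAP36, IFT20 and IFT46 kept their calls in CDd14 against CDd7 under all alternatives. Among the 17 axonemal genes, with 3 pools a group and wide SDs, only DNAAF2 passed the adjusted threshold, in CDd14 against CDd7. DNAAF2 is an arm assembly factor, and the result does not show that differences in the other genes are absent. Of the other CFAP genes, kept apart from these 17, CFAP36, CFAP410 and CFAP97 were called in that comparison.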
